A study of Homo sapiens with 11 samples.

Results

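The response of THP-1 monocytes to dexamethasone (Dex), a synthetic glucocorticoid, was described across a panel of immune genes. THP-1 is an established human cell line, derived from a monocytic leukaemia, so each sample is that line and not a donor. The monocyte samples were the 3 treated with 100 nM Dex for 6 h (Mono_Dex, replicates 2, 3 and 6) and the 3 given vehicle for 6 h (Mono_Vehicle, replicates 1, 3 and 6). Both monocyte groups had spent 24 h in charcoal-stripped medium, which is depleted of steroid hormones, and neither had received the phorbol ester PMA. The study also held PMA-made macrophages of the same line, 2 with Dex (Mac_Dex) and 3 with vehicle (Mac_Vehicle), which had 3 h of PMA, 24 h of recovery and the same medium. The genes described are the endogenous probes with a mean signal of 20 units or more in Mono_Dex or Mono_Vehicle, which were 332 of 594. Another 47 reached that level only in macrophages.

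Dexamethasone binds the glucocorticoid receptor, which then enters the nucleus. There it activates genes through glucocorticoid response elements and represses many inflammatory genes by interfering with NF-kB and AP-1, the factors that drive them. In monocytes and macrophages glucocorticoids are known for lowering inflammatory cytokines and chemokines and for raising scavenger receptors and inhibitors of cytokine signalling.

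RNA had been measured on the NanoString nCounter, which counts a colour barcode for each captured transcript without amplification. The values are a linear normalized signal, called units here. The summed endogenous signal lay between 413358 and 420466 units in Mono_Dex, against 372345 to 393214 in Mono_Vehicle, and the groups did not overlap. FKBP5 alone made up 66.2% of the difference between the group means. Without it the sums were 388526 to 395563 in Mono_Dex and 371099 to 391956 in Mono_Vehicle, which overlapped. Replicates correlated with Pearson r from 0.993 to 0.996 across the 332 genes on the log2 scale, a correlation across genes and not across replicates. Between replicates of a group, the squared difference over the counting variance averaged from 1.55 to 11.9 over genes. A few genes of high signal can raise such an average. IL32, for example, had 29371 units in Mono_Vehicle replicate 1 and 18406 in replicate 6. The averages therefore do not show whether most genes differed by more than counting noise. The labels do not say whether replicates were separate cultures, so the p-values rest on a spread between samples that may be technical.

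All 9 monocyte markers on the panel were among the genes described. CD14, the lipopolysaccharide co-receptor that defines blood monocytes, was at 22.5, 11.9 and 20.4 units in the 3 Mono_Dex samples and 49.0, 61.4 and 50.0 in Mono_Vehicle. Of 16 T-cell markers, 15 lay under 20 units in each of the 6 samples, and CD3D, CD8A and LCK were at the lowest value of the table, 1.00, throughout. TCF7, a T-cell transcription factor, lay between 38.0 and 63.1 units in Mono_Dex, against 47.4 to 53.9 in Mono_Vehicle. Of 9 B-cell markers 7, of 11 NK-cell markers 10 and of 5 granulocyte and mast-cell markers 3 were likewise under 20 units in all 6. The markers above that level included the B-cell factor PAX5, the adhesion molecule NCAM1 (between 1427 and 1616 units), and the receptors CSF3R and CXCR2. No marker of these 4 lists passed the test. Summed over the markers, T-cell signal was 66.8 to 99.9 units in Mono_Dex and 73.9 to 89.9 in Mono_Vehicle. B-cell signal was 80.4 to 143.9 units in Mono_Dex and 68.1 to 94.5 in Mono_Vehicle, and NK-cell signal 1448 to 1599 in Mono_Dex and 1608 to 1635 in Mono_Vehicle.

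Dexamethasone raised 60 of the 332 genes and lowered 82. A gene was called, and is said to have risen or fallen, at an adjusted p under 0.05 in limma on log2(value + 1). The fit covered 379 probes of the 4 groups, of which 39.1% were called in this comparison, 16.9% as higher and 22.2% as lower. Among the 332 genes the shares were 18.1% and 24.7%, and 165 (49.7%) had an unadjusted p under 0.05. Counts of rises and falls in the gene lists below are to be read beside the 18.1% and 24.7%, and were not tested against them. In 60.2% of the 332 genes the 3 Dex and the 3 vehicle values did not overlap, with Dex above vehicle in 25.6% and below it in 34.6%. Most calls were small. The median log2 change of called genes was 0.51 for rises and -0.63 for falls. In 14 rises and 22 falls it reached 1 log2 unit. These sizes are less settled where a group lay under 20 units. With values under 20 set to 20, the genes that no longer reached 1 included CCL20, EOMES, LTA and ICAM1, at 0.048, 0.38, 0.19 and -0.42. They also included CD163 and CD209, at 0.97 and -0.61. Of the 190 genes without a call, 170 had a 95% interval of the log2 change that lay within -1 and 1.

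**Figure D1:**
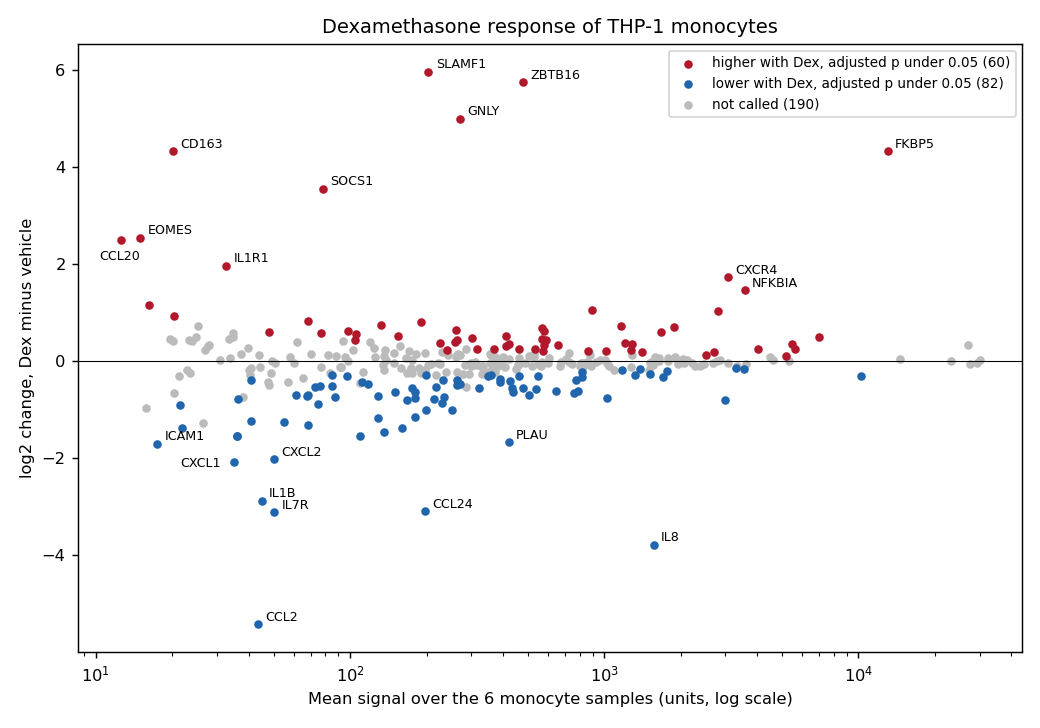
Each point is 1 of the 332 genes, with the mean signal over the 6 monocyte samples on a log axis and the log2 change, Dex minus vehicle, on the vertical axis. Red marks the 60 genes called higher with Dex, blue the 82 called lower and grey the 190 not called. SLAMF1, ZBTB16, GNLY, FKBP5 and CD163 lie above 4 and CCL2 below -5. All of these but FKBP5 had a group mean under 20 units, so the size of their change depends on how low values are handled.

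The balance of rises and falls depended on the scaling between samples. As deposited, 42.3% of the called genes were higher. When the samples were centred on their medians, the median log2 change of the 332 genes was 0.11, against -0.034 as deposited, and 98 genes were higher and 63 lower (60.9% higher). Centring on 15 housekeeping genes gave 69 and 86, close to the deposited scale. Changes no larger than that shift of the median have no settled direction here.

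Short stretches of promoter sequence are shown for the genes that hold an NF-kB motif, because NF-kB drives inflammatory chemokines and glucocorticoids restrain it. The windows are RefSeq's (GRCh38.p14), from 250 bases before to 50 after the annotated gene start, and were found for 270 of the 332 genes. The letters GGAATTTCC, searched on both strands, occurred in 0.472% of 27305 promoters. They occurred in 4 of 61 genes that fell, in 2 of 50 that rose and in 2 of 159 without a call (NFKB1 and PTPN2, picked out after their values were seen). The 4 that fell were the neutrophil chemokines IL8 (now CXCL8), CXCL1 and CXCL2 and the adhesion molecule ICAM1. The 2 that rose were NFKBIA and NFKBIZ, both members of the inhibitor-of-kB protein family. Each line gives 59 bases upstream of the gene start, written 5′ to 3′ in the direction of the gene, with the motif in capitals. Where it lies on the opposite strand, as in ICAM1 and NFKBIA, the capitals read as the reverse complement.
IL8 (chr4:73740453-73740511, plus strand): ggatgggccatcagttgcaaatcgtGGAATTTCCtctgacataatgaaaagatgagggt
CXCL1 (chr4:73869290-73869348, plus strand): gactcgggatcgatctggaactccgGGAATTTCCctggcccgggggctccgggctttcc
CXCL2 (chr4:74099239-74099297, minus strand): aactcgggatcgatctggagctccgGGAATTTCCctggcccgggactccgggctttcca
ICAM1 (chr19:10270909-10270967, plus strand): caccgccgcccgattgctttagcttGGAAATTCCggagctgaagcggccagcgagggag
NFKBIA (chr14:35404797-35404855, minus strand): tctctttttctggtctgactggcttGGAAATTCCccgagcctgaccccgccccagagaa
NFKBIZ (chr3:101827743-101827801, plus strand): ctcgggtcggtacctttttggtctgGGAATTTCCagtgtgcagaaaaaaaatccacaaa
IL8, CXCL1 and CXCL2 all lie on chromosome 4.

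The AP-1 letters TGANTCA, the same on both strands, occurred in 7.76% of all promoters. They were in 9 of 61 genes that fell (14.8%), 2 of 50 that rose (4.0%) and 8 of 159 without a call (5.03%). Windows of 57 bases with the AP-1 letters in capitals are shown for 4 genes that fell: IL8, the lipopolysaccharide co-receptor CD14, the interleukin 1 antagonist IL1RN and the urokinase receptor PLAUR.
IL8 (chr4:73740407-73740463, plus strand): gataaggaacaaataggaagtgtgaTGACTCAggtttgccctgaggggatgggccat
CD14 (chr5:140633367-140633423, minus strand): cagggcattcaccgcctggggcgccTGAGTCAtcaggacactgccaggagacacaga
IL1RN (chr2:113117723-113117779, plus strand): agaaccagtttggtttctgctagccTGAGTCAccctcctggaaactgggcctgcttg
PLAUR (chr19:43670324-43670380, minus strand): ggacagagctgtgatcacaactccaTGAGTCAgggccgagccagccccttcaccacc
The IL8 windows overlap, and its AP-1 letters lie upstream of its NF-kB letters. The interferon-stimulated response letters, GAAA repeated after 2 free bases, on both strands, occurred in 3.65% of all promoters, in 6 of 61 genes that fell (9.84%), in 2 of 50 that rose (4.0%) and in 13 of 159 without a call (8.18%). The full palindromic glucocorticoid response element, AGAACA and TGTTCT with 3 free bases between them, was in 1 of the 27305 windows and in none of the 270, which says only that these letters are not in this stretch. A match is a description of letters and not a bound site.

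Most genes known to be induced by glucocorticoids rose. Of 14 such genes, 12 rose and none fell, with a median log2 change of 0.71 against -0.034 over the 332 genes. The list was drawn up with these data known, so its count is not independent evidence. FKBP5, a co-chaperone that lowers the receptor's affinity for hormone, had 24832, 24989.9 and 24903 units in Mono_Dex, against 1259, 1205 and 1247 in Mono_Vehicle. The 3 Dex samples lay close together and far above the vehicle samples, and the log2 change was 4.33 (SE 0.11). ZBTB16, a zinc-finger repressor of blood-cell development, had 919, 944 and 969 units with Dex and 9.91, 17.9 and 25 with vehicle, so that vehicle samples straddled the floor of 20 units. Where a group mean is under that floor, 20 takes its place and a fold is given as a lower bound. ZBTB16 was at least 47.2-fold higher.

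The inhibitor NFKBIA, which holds NF-kB in the cytoplasm, had 5081, 5355 and 5306 units with Dex and 1973, 1842 and 1891 with vehicle. CXCR4, the receptor that retains leukocytes in bone marrow, had 4646, 4743 and 4796 units with Dex and 1506, 1403 and 1356 with vehicle. In both genes the 3 Dex samples stood well above the 3 vehicle samples. SOCS1, which blocks JAK kinases, was at 138, 139 and 155 units with Dex and 8.01, 12.9 and 13.8 with vehicle, at least 7.21-fold higher. CD163, the haemoglobin scavenger receptor, had 37.3, 38.0 and 42.6 units with Dex and the lowest value of the table in each vehicle sample.

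Smaller rises in the same list were TLR2, a receptor for bacterial lipoproteins (log2 change 0.73, SE 0.056), CEBPB, a transcription factor of myeloid cells (0.68, SE 0.059), IRAK3, an inhibitory member of the IRAK kinase family (0.47, SE 0.084), and the cell-cycle inhibitor CDKN1A (0.43, SE 0.07). NFIL3, a leucine-zipper transcription factor named after its values were seen, rose by 0.53 (SE 0.067). BCL6, a transcription repressor, had 42.4, 68.9 and 64.8 units with Dex and 32.8, 42.1 and 38.2 with vehicle (0.60). BCL6 lost its call with replicate 1 of Mono_Vehicle (log2 change 0.51, adjusted p = 0.0604), with replicate 3 of Mono_Dex (log2 change 0.47, adjusted p = 0.0698) or with replicate 6 of Mono_Dex (log2 change 0.52, adjusted p = 0.0642) left out. DUSP4 and TNFAIP3, the 2 of the 14 without a call and named for that after their values were seen, had log2 changes of 0.11 and 0.26.

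A second group of genes came up from background, and several are better known in lymphocytes. SLAMF1, a self-ligand receptor that also senses bacteria in phagocytes, had 397, 406 and 398 units with Dex and 1.33, 8.73 and 10.5 with vehicle. GNLY, which encodes granulysin, a membrane-lysing protein of cytotoxic lymphocytes, had 529, 524 and 531 units with Dex and 20.4, 12.1 and 15.1 with vehicle. These were at least 20.01-fold and at least 26.4-fold higher. The partner genes of the granule were not seen, since GZMB stayed at 1.00 in each of the 6 samples and PRF1, which encodes perforin, reached at most 2.28. IL1R1, the signalling receptor for interleukin 1, had 57.9, 41.9 and 57.1 units with Dex and 8.01, 14.6 and 16.4 with vehicle, at least 2.61-fold higher. LTA, the lymphotoxin ligand, had 24.0, 19.6 and 24.6 units with Dex and 10.9, 10.4 and 7.88 with vehicle. EOMES, a T-box transcription factor, had 21.1, 26.4 and 31.5 units with Dex and 3.24, 3.71 and 3.93 with vehicle, and the chemokine CCL20 had 21.1, 20.6 and 20.4 units with Dex and 1.33, 1.00 and 11.2 with vehicle. These last 3 sit so near the floor that setting values under 20 to 20 ended their calls. The log2 change was then 0.19 for LTA (adjusted p = 0.19), 0.38 for EOMES (adjusted p = 0.231) and 0.048 for CCL20 (adjusted p = 0.921). The T-cell and B-cell marker sums given above overlapped between the groups. The NK-cell sum was lower in Mono_Dex, but most of it was NCAM1, which had no call and whose groups overlapped. In bulk samples, more RNA per cell and more cells of a type cannot be told apart.

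**Figure D2:**
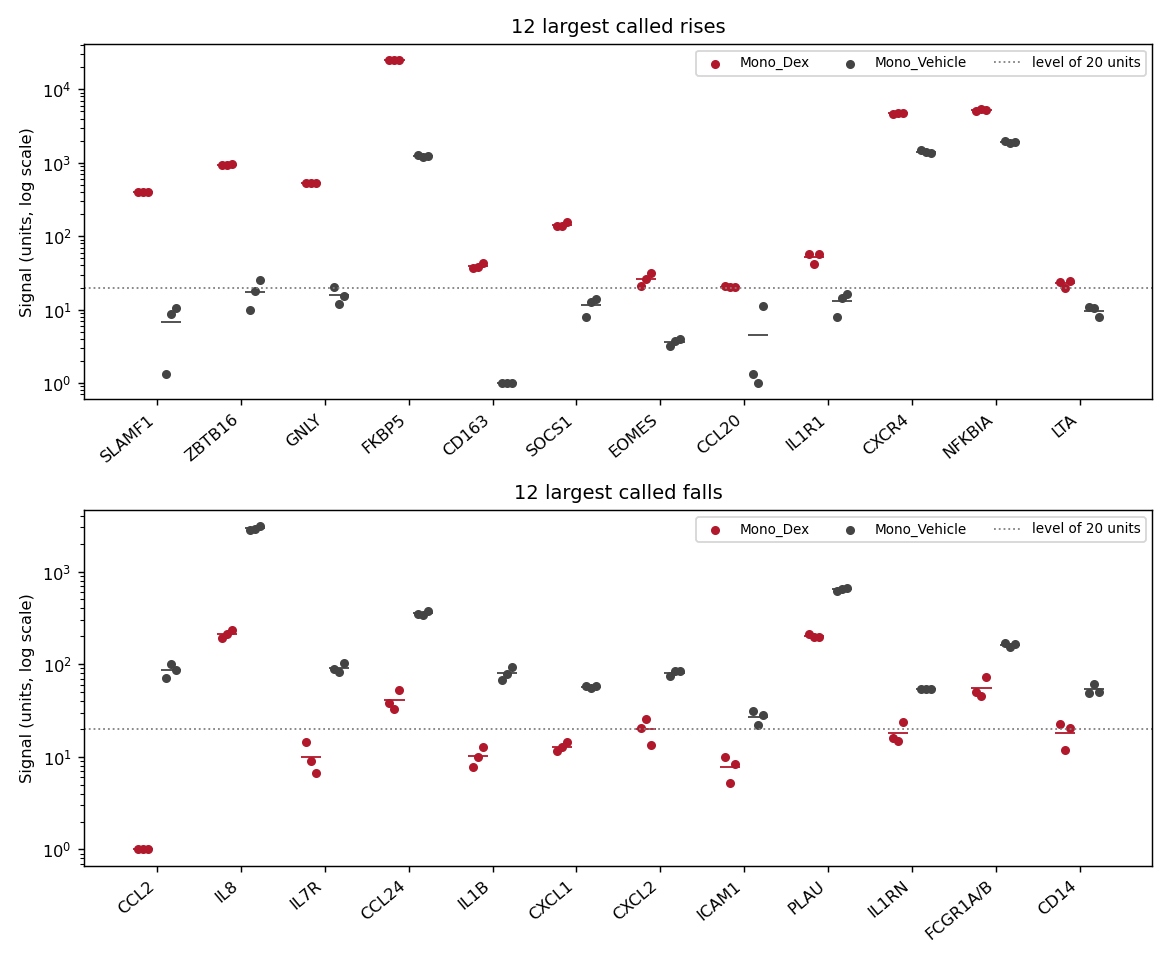
Signal of each monocyte sample on a log axis for the 12 largest called rises (top) and falls (bottom), with Mono_Dex in red to the left of Mono_Vehicle in dark grey, short lines at the group means and a dotted line at 20 units. The 3 samples of a group lie close together beside the gap between groups for FKBP5, CXCR4, NFKBIA, IL8, CCL24 and PLAU, while EOMES, CCL20, LTA and ICAM1 sit at the dotted line.

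Most chemokines fell. All 4 CXC chemokines measured here were called, 3 as lower. IL8, the main attractant of neutrophils, had 192, 209.8 and 235 units with Dex, against 2774, 2910.2 and 3067 with vehicle (13.8-fold lower). CXCL1 had 11.5, 12.9 and 14.4 units with Dex and 57.6, 55.5 and 58.6 with vehicle and CXCL2 20.3, 25.4 and 13.5 units with Dex and 73.8, 84.8 and 84.3 with vehicle; both act on the same receptor as IL8. CXCL1 was under the floor in each Dex sample, and CXCL2 was under it in 1 of the 3. The exception was CXCL12, the ligand of CXCR4, with 25.5, 22.6 and 32.3 units with Dex and 18.5, 10.4 and 12.5 with vehicle. CXCL12 lost its call with replicate 3 of Mono_Vehicle (log2 change 0.76, adjusted p = 0.138), with replicate 6 of Mono_Vehicle (log2 change 0.88, adjusted p = 0.0854), with replicate 2 of Mono_Dex (log2 change 0.96, adjusted p = 0.0716) or with replicate 6 of Mono_Dex (log2 change 0.79, adjusted p = 0.116) left out.

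Of 8 CC chemokines, 5 fell and CCL20 rose. CCL2, which draws monocytes from the blood, was at the lowest value in each Dex sample and at 70.9, 101 and 85.6 units in vehicle samples. CCL24, an eosinophil attractant also known as eotaxin 2, had 38.0, 33.2 and 52.8 units with Dex and 346, 339.7 and 374 with vehicle. CCL3 and CCL4, inflammatory chemokines whose near-identical gene copies may share the probes, were lower by 2.60-fold and 1.75-fold; CCL4 was named after its values were seen. CCL5 had 518, 522 and 488 units with Dex, against 809, 759 and 772 with vehicle, a smaller change of -0.61 in log2 (SE 0.057). Of 6 chemoattractant receptors, CXCR4 rose and 2 fell. CCR1, a receptor of CCL3 and CCL5, fell by 0.53 in log2 (SE 0.10), and CXCR2, which binds IL8, had 155, 157 and 150.2 units with Dex and 177, 182 and 184 with vehicle, groups that did not overlap but did not pass (adjusted p = 0.304).

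Within the interleukin 1 family the ligand IL1B fell and its receptor IL1R1 rose. IL1B had 7.78, 10 and 12.7 units with Dex, against 68.1, 78.9 and 92.8 with vehicle, all Dex samples under the floor. Its natural antagonist IL1RN was lower as well, with 15.9, 14.8 and 23.8 units with Dex and 53.8, 53.9 and 54.0 with vehicle. IL18, a related cytokine, had 188, 166 and 191 units with Dex and 137, 112 and 134 with vehicle (log2 change 0.51). CASP1, the protease that matures both cytokines, was at 0.17 (95% interval 0.016 to 0.33, adjusted p = 0.0776). The accessory chain IL1RAP was at -0.067 (adjusted p = 0.634), and is named after its value was seen.

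Among 7 other secreted cytokines 3 fell and none rose, and 1 of the 3 falls, TNFSF13B, kept its call with each sample left out in turn. TNFSF13B, which sustains B cells, had 66.7, 77.6 and 71.6 units with Dex and 206, 201 and 192 with vehicle. TNF, the central inflammatory cytokine, had 258, 277 and 243 units with Dex and 367, 417 and 359.5 with vehicle, a change of -0.55 in log2 (adjusted p = 0.0178) with groups that did not overlap. TNF lost its call with replicate 3 of Mono_Vehicle (log2 change -0.48, adjusted p = 0.078) or with replicate 6 of Mono_Dex (log2 change -0.51, adjusted p = 0.0686) left out. IL23A, a subunit of interleukin 23 named after its value was seen, changed by -0.78 and lost its call in 4 of the 6 fits that left out a sample (adjusted p = 0.0592 to 0.0993). IL32, an inducible cytokine of human leukocytes, had no call. It lay at 28358, 30476 and 31221 units with Dex and 29371, 24642 and 18406 with vehicle, and the vehicle samples spread far more than the Dex samples. MIF, a cytokine that opposes glucocorticoid action, averaged 5340 ± 83.4 units with Dex and 5328 ± 441 with vehicle (SD, n = 3 each), with no call; it is named after its value was seen. Of 5 TNF superfamily ligands 4 fell, including TNFSF10, the death ligand TRAIL (29.9, 42.8 and 45.1 units with Dex, 98.6, 104 and 90.2 with vehicle), and CD70, the ligand of CD27 (603, 620.1 and 647 units with Dex and 966, 977 and 919 with vehicle).

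Of 17 cytokine receptor genes, 3 rose and 5 fell. The rise of IL4R (0.24 in log2) and the fall of CSF2RB (-0.47), receptor chains named after their values were seen, each lost the call in 5 of the 6 fits that left out a sample (adjusted p = 0.0683 to 0.164 and 0.05 to 0.138 there). IFNGR1, the ligand-binding chain for interferon gamma, had 3792, 3784 and 3707 units with Dex and 1913, 1765 and 1854 with vehicle (2.04-fold). IL13RA1, shared by the interleukin 4 and 13 receptors, had 1194, 1221 and 1212 units with Dex and 551, 585 and 598 with vehicle (2.09-fold). IL7R, the interleukin 7 receptor chain, went the other way, with 14.4, 9.04 and 6.68 units with Dex, all under the floor, against 88.1, 82.3 and 102 with vehicle. CSF1R, the receptor for macrophage colony-stimulating factor, had 53.5, 49.6 and 52.8 units with Dex and 88.1, 88.1 and 79.0 with vehicle, and IL10RA had 141, 139 and 146 units with Dex and 219, 208 and 232 with vehicle.

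Downstream of these receptors, 5 of 16 genes in the JAK, STAT and SOCS list rose and 1 fell. Of these, 4 rises and 0 falls kept the call with each sample left out in turn. The rise that did not was BCL6, a transcription repressor that the list held although it is no JAK, STAT or SOCS gene. Besides SOCS1 and BCL6, STAT3, which carries interleukin 6 and 10 signals, rose by 0.38 in log2 (SE 0.05), and the kinases JAK1 and JAK2, named after their values were seen, by 0.26 and 0.35. The phosphatase PTPN6, which dampens receptor signalling, was at 0.14 without a call (adjusted p = 0.0911).

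NF-kB genes moved both ways, with 3 of 22 higher and 5 lower, against 18.1% and 24.7% of the 332 genes. These counts do not exceed those shares. Neither they nor the counts of the other lists were tested against them. RELB, a subunit of the noncanonical pathway, had 72.6, 81.4 and 80.2 units with Dex and 156, 178 and 201 with vehicle. BCL3, a nuclear co-activator of the inhibitor family, had 21.1, 21.6 and 29.8 units with Dex and 54.7, 64.7 and 52.0 with vehicle. TAGAP, a GTPase-activating protein of immune cells, had 163, 179.9 and 187 units with Dex and 279, 294 and 304 with vehicle. In contrast NFKBIZ, a nuclear inhibitor-family protein, had 77.8, 91.1 and 94.7 units with Dex and 46.1, 53.0 and 48.0 with vehicle. The canonical subunits RELA and NFKB1 had no call, at -0.049 and -0.26; RELA was named after its value was seen.

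Sensors of microbes also moved both ways. Of 14 Toll-like receptor and adaptor genes, TLR2, IRAK1 and IRAK3 rose, and TLR1 and CD14 fell. Over the 332 genes, 18.1% rose and 24.7% fell. IRAK1 lost its call with replicate 1 of Mono_Vehicle (log2 change 0.18, adjusted p = 0.0543) or with replicate 6 of Mono_Dex (log2 change 0.15, adjusted p = 0.0617) left out. TLR1, which pairs with TLR2, had 71.9, 52.5 and 63.9 units with Dex and 88.1, 87.3 and 92.2 with vehicle. TLR4, the lipopolysaccharide receptor, had 262, 222 and 275 units with Dex and 336, 291 and 284 with vehicle, with a log2 change of -0.26 (95% interval -0.48 to -0.049) that just missed the threshold (adjusted p = 0.0507). Of 8 cytosolic sensors, 4 fell and none rose. NOD2, which detects bacterial muramyl dipeptide, had 23.3, 35.1 and 39.1 units with Dex and 69.0, 78.1 and 85.6 with vehicle. The inflammasome sensor NLRP3 had 364, 364 and 427 units with Dex and 613, 593 and 666 with vehicle, and IFI16, a DNA sensor, 71.9, 58.3 and 65.6 units with Dex and 113, 99.0 and 118 with vehicle. TMEM173, the adaptor STING, was at -0.052 (95% interval -0.20 to 0.10).

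None of 19 interferon-response genes rose and 6 fell, against 18.1% and 24.7% of the 332 genes. Their median log2 change was -0.23, against -0.034 over the 332. MX1, an antiviral GTPase, had 104, 124 and 107 units with Dex and 224, 285 and 239 with vehicle. IRF8, an interferon regulatory factor needed for monocyte development, had 2125, 2170.4 and 2246 units with Dex and 3864, 3651 and 3844 with vehicle, the 3 Dex samples far below the 3 vehicle samples. The falls of IFIT2 and IFIH1, named after their values were seen, did not withstand leaving out a sample, and 3 of the 6 falls in the list did. IFIT2 lost its call without any 1 of the 6 samples (log2 change -0.63 to -0.79), and IFIH1 without any 1 of 5 (all but Mono_Vehicle replicate 6, -0.47 to -0.50).

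Of 9 markers of monocytes, 5 fell and 1 rose. FCGR1A/B, a probe shared by a pair of high-affinity IgG receptor genes, had 49.8, 45.7 and 72.5 units with Dex and 170.1, 152 and 165 with vehicle. CD36, a scavenger receptor for lipids, had 586, 579.5 and 606 units with Dex and 924, 947 and 904 with vehicle, and ITGAM, the alpha chain of complement receptor 3, 85.2, 86.3 and 88.7 units with Dex and 110, 103 and 111 with vehicle; the last fall was not called after median-centring (-0.17, adjusted p = 0.124). LILRB4, an inhibitory receptor, rose to 1493, 1411 and 1438 units with Dex, against 1112, 1133 and 1153 with vehicle. Among the other members CD4 was at 0.054 and FCGR2A at -0.18 (adjusted p = 0.066), both without a call. Of 11 macrophage markers, 4 were among the genes described: CD163, CD9 and SPP1 rose and CD209 fell. The matrix protein osteopontin, SPP1, had 239, 252 and 235 units with Dex and 133, 122 and 157 with vehicle, and the lectin CD209 15.9, 5.17 and 16.1 units with Dex and 29.9, 24.6 and 38.8 with vehicle. MRC1, the mannose receptor often induced by glucocorticoids, was at 1.00 in each sample.

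Of 9 integrin genes, 1 rose and 4 fell. ITGA5, which pairs with the beta 1 chain to bind fibronectin, had 1990.4, 1962 and 2073 units with Dex and 1281, 1312 and 1383 with vehicle. ITGAL, the alpha chain of the ICAM1 receptor, had 146, 159 and 168 units with Dex and 270.1, 259 and 277 with vehicle, and ITGA4, which binds VCAM1, 401, 366 and 401 units with Dex and 584, 544 and 575 with vehicle. ITGB1 was without a call at -0.028 (95% interval -0.13 to 0.073). ICAM1, the ligand of ITGAL, had 9.99, 5.17 and 8.39 units with Dex and 30.9, 22.1 and 28.3 with vehicle, close to the floor (adjusted p = 0.0515 with values under 20 set to 20). Of 11 adhesion genes and tetraspanins, ICAM1 included, 6 rose and 3 fell, of which 2 rises and 2 falls kept their calls with each of the 6 samples left out in turn. The rises that did not were PECAM1, CD99, ICAM3 and CD58, which lost the call in 6, 5, 4 and 3 of the 6 fits, and the fall was CD82, in 4; these 5 are named after their values were seen. PECAM1 fell instead under quantile normalization (-0.14, adjusted p = 0.0173). CD53, a leukocyte tetraspanin, had 742, 693 and 682 units with Dex and 468, 442 and 460.3 with vehicle. The tetraspanin CD81 had 8331, 8211 and 8046 units with Dex and 5621, 5836 and 5794 with vehicle, yet quantile normalization turned its change to -0.10 (adjusted p = 0.256). CD44, the hyaluronan receptor, fell by 0.42 in log2 (SE 0.075).

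Of 6 costimulatory and checkpoint genes, 5 fell and none rose. The falls of CD276 and LAIR1, named after their values were seen, lost the call in 4 and 3 of the 6 fits that left out a sample, and the other 3 kept it. CD83, a marker of activated antigen-presenting cells, had 118, 145 and 135 units with Dex and 276, 247 and 275 with vehicle, and CD40 had 52.7, 54.4 and 50.2 units with Dex and 101, 89.8 and 101 with vehicle. The checkpoint receptor HAVCR2 was lower by 0.38 in log2, a call that ended after median-centring (-0.23, adjusted p = 0.0597) and with quantile normalization (-0.17, adjusted p = 0.15). The SLAM relative CD244 fell by 0.48, opposite to SLAMF1.

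Effector genes of phagocytes also fell, 4 of 6 with no rise. CTSG, the granule protease cathepsin G, had 9222, 9102 and 9207 units with Dex and 11904, 10950.3 and 10988 with vehicle, but its change of -0.30 shrank to -0.15 after median-centring (adjusted p = 0.0843). CYBB and NCF4, subunits of the NADPH oxidase, fell by 0.39 and 0.32 in log2. S100A9, a subunit of calprotectin, averaged 433 ± 23.5 units with Dex and 642 ± 23.4 with vehicle (SD, n = 3 each). S100A9 lost its call with replicate 1 of Mono_Vehicle (log2 change -0.55, adjusted p = 0.0562), with replicate 3 of Mono_Vehicle (log2 change -0.56, adjusted p = 0.0572) or with replicate 2 of Mono_Dex (log2 change -0.53, adjusted p = 0.0627) left out. In the urokinase system both members fell: the protease PLAU had 211, 196 and 195 units with Dex and 618, 645 and 664 with vehicle (3.19-fold lower), and its receptor PLAUR 99.2, 85.3 and 107 units with Dex and 170.1, 164 and 144 with vehicle. CTSC, the protease that activates granule enzymes, was at 0.028 (95% interval -0.07 to 0.13).

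Of 26 genes in the list of transcription factors, 10 rose and 4 fell. Besides ZBTB16, EOMES, CEBPB, BCL6 and NFIL3, GFI1, a repressor of myeloid development, had 4303, 4371 and 4448 units with Dex and 3699, 3764 and 3557 with vehicle; quantile normalization turned its change to -0.074 (adjusted p = 0.346). ETS1, PPARG, AHR and BATF3, named after their values were seen, rose by 0.34, 0.63, 0.38 and 0.39 in log2. PPARG is a lipid-sensing nuclear receptor of macrophages, and AHR senses aromatic ligands. EGR1, an immediate-early factor, had 146, 149 and 189.5 units with Dex and 242, 269 and 385 with vehicle, and PRDM1, a transcriptional repressor of lymphoid and myeloid cells, 128, 113 and 110 units with Dex and 178, 174 and 194 with vehicle. IKZF1, also named after its values were seen, fell by 0.47. The fourth fall was that of ABCB1, a drug efflux pump that the list held although it is no transcription factor (18.8, 9.04 and 16.9 units with Dex and 21.4, 27.9 and 34.2 with vehicle). It lost its call without Mono_Vehicle replicate 6 (-0.73, adjusted p = 0.053).

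Among survival genes, BCL2 fell and BCL2L11 rose. BCL2, which blocks apoptosis, had 339, 312 and 380 units with Dex and 568, 528 and 504 with vehicle. BCL2L11, the pro-apoptotic BIM, had 177, 179.9 and 141 units with Dex and 108, 86.4 and 99.4 with vehicle. The survival factor MCL1 was at 0.088 (95% interval -0.019 to 0.20). Of 16 apoptosis and cell-cycle arrest genes 3 rose and 2 fell, against 18.1% and 24.7% of the 332 genes. In the MAP kinase list 2 of 9 rose and none fell: the p38 kinase MAPK14 by 0.24 and its substrate kinase MAPKAPK2 by 0.45. LCP2, an adaptor downstream of immune receptors, had 2395, 2279.5 and 2354 units with Dex and 1384, 1405 and 1483 with vehicle, while the kinase FYN had 155, 127 and 119 units with Dex and 210.1, 243 and 225 with vehicle.

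The 4 probes of the phosphatase gene PTPRC (CD45) did not all pass. The probe for all forms averaged 1507 ± 17.1 units with Dex and 1889 ± 86.7 with vehicle, and the CD45RB probe 338 ± 4.08 units with Dex and 438 ± 8.62 with vehicle (SD, n = 3 each). Both fell. The CD45RA and CD45R0 probes, named after their values were seen, were at -0.44 and -0.15 in log2 (adjusted p = 0.33 and 0.264), the same direction without a call.

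Few antigen presentation genes were called. None of 9 MHC class II and loading genes was called in limma, and none had an unadjusted p under 0.05. HLA-DRA had 154, 159 and 171 units with Dex and 197, 194 and 179.8 with vehicle (-0.24, 95% interval -0.72 to 0.25). CTSS, the protease that trims the class II chaperone, was at -0.029 (95% interval -0.12 to 0.066). Of 16 class I genes, 1 rose and 1 fell; with each sample left out in turn, the rise kept its call and the fall did not. CD1D, which presents lipids, rose, with 273, 302 and 387 units with Dex and 193, 203 and 208 with vehicle. B2M, the shared light chain, was at -0.06 (95% interval -0.17 to 0.052).

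In the complement list 2 of 12 rose and 4 fell, of which 0 rises and 2 falls kept the call with each sample left out in turn. CFP, properdin, had 132, 123 and 126 units with Dex and 90.0, 85.6 and 79.7 with vehicle. CFP lost its call with replicate 3 of Mono_Vehicle (log2 change 0.58, adjusted p = 0.0606), with replicate 6 of Mono_Vehicle (log2 change 0.53, adjusted p = 0.0799), with replicate 2 of Mono_Dex (log2 change 0.55, adjusted p = 0.0718) or with replicate 6 of Mono_Dex (log2 change 0.58, adjusted p = 0.0565) left out. C3, the central component, had 189, 201 and 211 units with Dex and 276, 241 and 273 with vehicle. Among the 4 falls, MBP (myelin basic protein) was in the list without being a complement gene. The other rise, the adhesion receptor CD97, was likewise no complement component. It lost its call in 3 of the 6 fits that left out a sample. Of 10 TGF-beta and Notch genes 1 rose and 3 fell: the repressor SKI rose by 0.20, and TGFBI, TGFBR1 and NOTCH2 fell by 0.27, 0.31 and 0.26, calls that ended after median-centring (-0.13, -0.17 and -0.12; adjusted p = 0.128, 0.114 and 0.135). The fall of TGFBR1 also ended without Mono_Vehicle replicate 6 (-0.25, adjusted p = 0.053). Among 15 housekeeping genes GUSB rose by 0.22 and ALAS1, an enzyme that starts haem synthesis, fell to 739, 780.3 and 774 units with Dex, against 1301, 1294 and 1293 with vehicle. GAPDH, RPL19 and EEF1G were at -0.03, 0.028 and 0.0089 with no call. Called genes outside every list included PTGER4, a prostaglandin E2 receptor, which fell by 1.00, ATG7, an autophagy enzyme, which fell by 0.55, and the potassium channel KCNJ2, which rose by 0.58; these 3 were picked out after their values were seen. CTNNB1, beta-catenin, had 5962, 5982 and 6439 units with Dex and 5047, 5131 and 5259 with vehicle, a change that quantile normalization turned to -0.10 (adjusted p = 0.153).

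**Figure D3:**
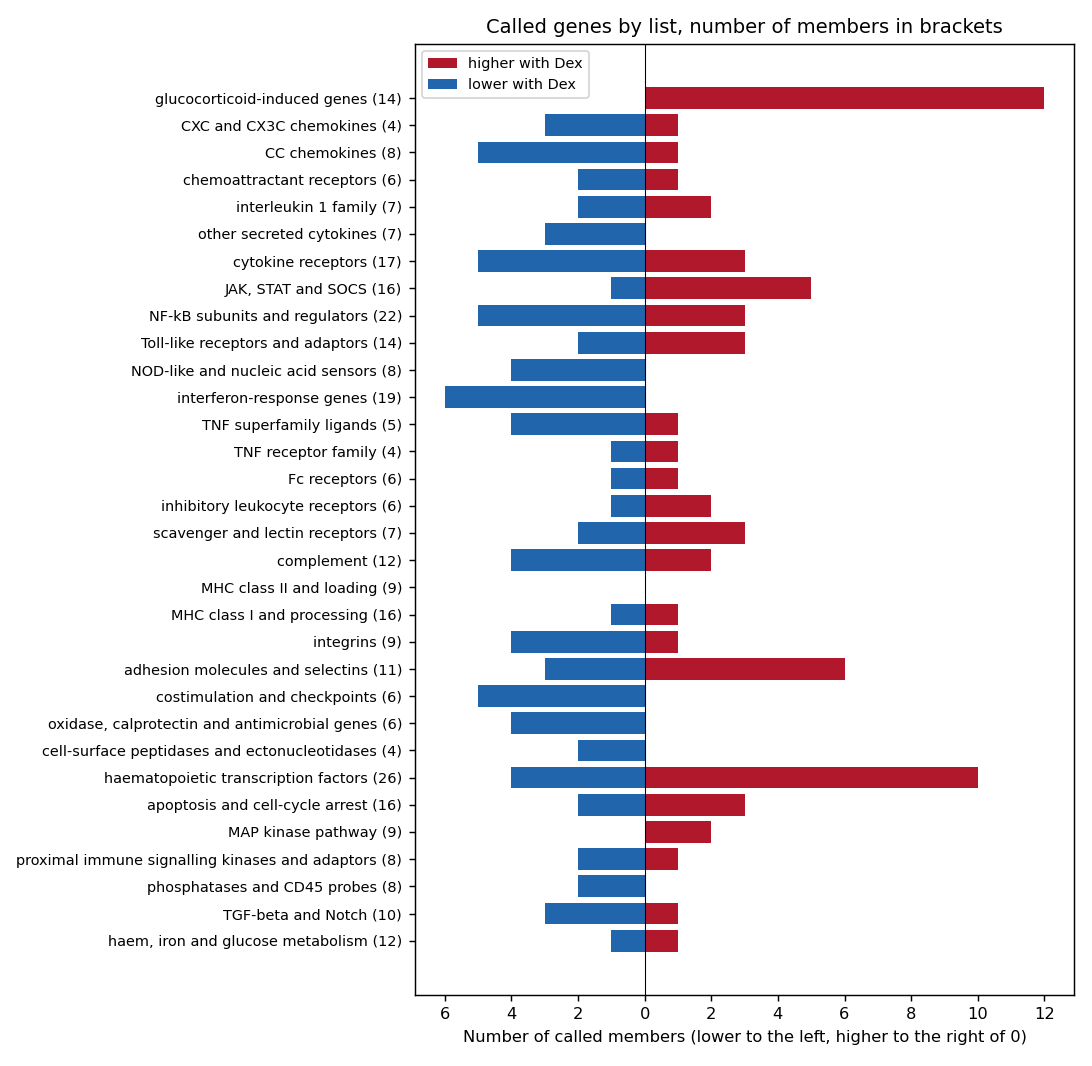
Number of called genes in each list with at least 4 measured genes, housekeeping genes and cell type markers left out, lower with Dex to the left of 0 and higher to the right; the number measured stands in brackets. Glucocorticoid-induced genes (12 higher, 0 lower) and transcription factors (10 and 4) extend to the right, and interferon-response genes (0 and 6) and costimulatory genes (0 and 5) to the left. With each sample left out in turn, 11 higher, 9 higher and 3 lower, 3 lower and 3 lower kept their calls in these lists. The counts were not tested against the shares over the 332 genes, 18.1% higher and 24.7% lower.

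The monocyte response differed from the macrophage response in 87 of the 332 genes (26.2%), by the interaction term of the same fit, against 25.9% of all 379 probes. It was more positive in monocytes for 42 and more negative for 45. Log2 changes are given for monocytes first. CCL24 changed by -3.09 in monocytes and 0.012 in macrophages, where it was already at 42.0, 32.1 and 31.8 units with vehicle, close to the Dex-treated monocytes (difference -3.10, adjusted p = 4.52e-06). NLRP3 changed by -0.70 in monocytes and by 1.00 in macrophages (difference -1.70, SE 0.12, adjusted p = 2.69e-07), and NOD2 by -1.26 and 0.89 (difference -2.15, SE 0.45, adjusted p = 0.00329). Each of these 2 sensors fell in monocytes. BCL6 had the reverse pattern, at 0.60 and -0.96 (difference 1.56, adjusted p = 0.000572). IL7R fell more in monocytes, by 3.11, than in macrophages, at -0.99 (adjusted p of the difference = 0.00036), though its Dex-treated monocytes lay under the floor. GNLY was at 5.00 and 2.80 (difference 2.20, adjusted p = 1.31e-05), with vehicle monocytes under the floor and vehicle macrophages at 133, 102 and 109 units. FKBP5 rose less in monocytes (4.33) than in macrophages (6.29). No p is given for that difference, because the authors had left out another Mac_Dex sample partly for its lack of FKBP5 induction. The same 2 remaining Mac_Dex samples entered every difference and count given here. How far that selection affects the differences and p-values of the other genes was not tested.

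For genes near the floor the difference has no settled size. CD163 was at 4.33 in monocytes and 1.88 in macrophages, but with values under 20 set to 20 the difference of 2.45 became -0.92 (adjusted p = 0.00239). EOMES and DEFB1 changed sign in the same way, to -0.11 and 0.034. LTA and HLA-DPA1, with differences of 1.42 and 2.67, had no group mean above 31.2 units. CCL20, CR1 and LTA were the genes just inside the level of 20, with higher group means of 20.7, 20.9 and 22.8, and MARCO, CXCL13 and sCTLA4 those just outside, at 18.9, 18.1 and 18.0.

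**Figure D4:**
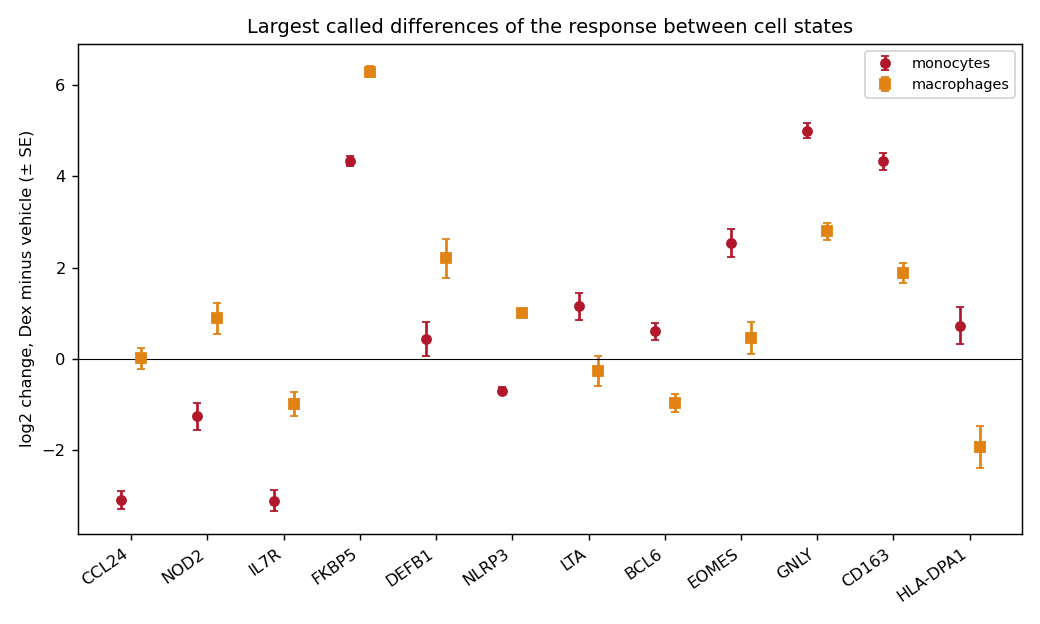
Log2 change, Dex minus vehicle, with its standard error in monocytes (red circles) and, to their right, macrophages (orange squares), for the 6 most negative and the 6 most positive called differences of the response among the 332 genes. NOD2, NLRP3, LTA, BCL6 and HLA-DPA1 lie on opposite sides of 0 in the 2 cell states, and CCL24 lies at 0.012 in macrophages.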

How the data were processed

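RNA of the 11 samples was measured on the nCounter with an immune panel of 594 endogenous probes, from 50 ng of RNA per the labels' protocols. The deposited values are the authors' normalized signal per probe; nSolver quality control is named in the series' design text, and the background and scaling settings are not stated in those sources. From the values, each endogenous signal is a sample factor times a count less a background, with results under 1 set to 1. Whole counts could not be recovered, so no count test was run and depth in reads is unknown.

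Samples were grouped by their titles. The signal was tested as log2(value + 1) in limma 3.58.1 (R 4.3.3; lmFit, eBayes with trend) over 4 groups, with Benjamini-Hochberg adjustment over 379 probes whose highest group mean was 20 or more. A fold is a ratio of group means. Named genes were the 15 largest called rises and falls whose groups did not overlap, up to 3 called rises, 3 called falls and the member of highest signal per list, the 10 of highest signal, the 6 largest differences each way from macrophages, genes that crossed 20 units and a set of known glucocorticoid and inflammatory genes. The genes and lists were chosen with earlier results of these data known. The fit was tested on simulated data, and 16 alternative settings were run. At a simulated log2 change of 0.5, 75% of 100 changed genes were recovered and 8.54% of the calls were false. At 1 and 2, 91% and 98% were recovered, with 2.15% and 3.92% of the calls false. Motifs were searched in RefSeq promoter windows with Python 3.11.15. Some genes that entered the fit and the list counts are not reported here by name.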

Additional observations from a re-analysis of the deposited data

Results flagged for a closer look

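The response to Dex differed between monocytes and macrophages, by the interaction term of limma, in 12 genes singled out as the 6 largest differences in each direction. Values are the monocyte log2 change minus the macrophage one. The response was more negative in monocytes for the chemokine CCL24 (-3.10), the sensors NOD2 (-2.15) and NLRP3 (-1.70), the receptor IL7R (-2.12), FKBP5 (-1.96) and the defensin DEFB1 (-1.77). It was more positive in monocytes for HLA-DPA1 (2.67), CD163 (2.45), granulysin GNLY (2.20), EOMES (2.08), BCL6 (1.56) and LTA (1.42). DEFB1 had 28.4, 26.4 and 25.5 units with Dex and 24.2, 15.4 and 19.7 with vehicle in monocytes, and no call there. HLA-DPA1, a chain of an MHC class II molecule, had 30.6, 25.4 and 37.4 units with Dex and 16.6, 12.1 and 29.6 with vehicle, also without a call. The value for FKBP5 is not independent of how the Mac_Dex samples were selected, and whether the other values are was not tested. CD163, EOMES, LTA, DEFB1, HLA-DPA1, IL7R and GNLY each had a group under 20 units. The difference of LTA lost its call with any 1 of the 6 monocyte samples left out (1.29 to 1.52, adjusted p = 0.0521 to 0.079), and that of DEFB1 with any 1 but replicate 3 of Mono_Vehicle (-1.93 to -1.62 over the 6 fits, adjusted p = 0.06 to 0.0875 where the call was lost). With values under 20 set to 20, the differences of HLA-DPA1 and LTA were 0.43 and 0.19 (adjusted p = 0.24 and 0.397).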

How the results depend on the processing

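Of the 142 called genes, 97 kept call and direction under each of 15 alternatives and 55 also with a replicate block. The counts of 60 higher and 82 lower genes became 98 and 63 after median-centring, and 14 and 22 when a call also needed a change of 1 log2 unit. Leaving out 1 of the 6 samples gave 49 to 57 higher and 72 to 78 lower. For the difference from macrophages, 42 more positive and 45 more negative genes became 15 and 13 with the size rule, and leaving out 1 of those 6 samples gave 30 to 36 and 34 to 41. With the replicate number as a block, 28 genes were higher and 31 lower, and the differences numbered 10 and 17. Mono_Dex replicate 2 and Mono_Vehicle replicate 1 have no partner of the same number. They add nothing to the monocyte change in that fit, which therefore rests on fewer samples. The numbers shared by both groups are 3 and 6, whose deviations correlated at 0.19 and 0.11 across genes; with 2 such pairs, and no label saying that a number marks a shared culture, they were not taken to pair the samples. With values under 20 set to 20, the differences of CD163, DEFB1 and EOMES changed sign, to -0.92, 0.034 and -0.11. With quantile normalization the changes of CD81, CTNNB1 and GFI1 did, to -0.10, -0.099 and -0.074. The causes were not tested. Signal near 20 units limits the low genes, since negative controls reached 15.6 units in Mono_Dex and 12.4 in Mono_Vehicle.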
